A study of Mus musculus with 3 samples.

Results

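Divergent promoters are stretches of DNA from which a pair of neighbouring genes is transcribed in opposite directions. TRα1 binding sites at such promoters were taken from a list of 23988 sites as those whose summit, the position of highest ChIP signal, lay between or within 500 bp of the 5′ ends of a divergent pair. A pair consisted of protein-coding genes on opposite strands, transcribed away from each other, with 5′ ends at most 1000 bp apart in the GENCODE annotation of GRCm38. This rule found 285 sites, or 1.19% of the list. A further 3592 sites had their summit within 500 bp of the 5′ end of a protein-coding gene without belonging to a divergent pair, and are called single promoter sites below. The remaining 20111 sites lay away from promoters. Genes on opposite strands whose 5′ ends overlap did not form a pair, so that sites at such genes are among the single promoter sites. With overlapping 5′ ends counted as pairs, there were 475 divergent and 3402 single promoter sites. The rule used only positions, so that the strength, length and sequence of the sites did not take part in the choice.

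The list came from ChIP-seq of TRα1 in the striatum of euthyroid male C57BL/6J mice, 8 weeks old, without treatment. All animals expressed a GS-tagged TRα1 from a 'floxed' construct, switched on in GABAergic neurons, so that the tag marked these cells within a mixed tissue. There were 2 ChIP libraries and 1 input library, and a single peak list without values for each library. Replicates could therefore not be compared, and all tests below count sites, genes or pairs, which are not replicates of a condition. No expression was measured, so the cell type could not be checked against its markers. Intervals are 95% Wilson intervals and cover counting error only. For each site the list gave the pileup, which is the number of ChIP fragments over the summit, and the fold enrichment, which divides that number by the local background after adding 1 to both.

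Thyroid hormone receptors bind DNA mainly as heterodimers with RXR, on direct repeats of the half-site AGGTCA separated by a spacer of 4 bp, named DR4. Divergent promoters are commonly found in CpG islands and often lack a TATA box. Many of them serve genes of DNA repair, RNA processing and mitochondria, and short elements for ETS factors, NRF1, YY1 or NF-Y are frequent within them. The DNA between the 5′ ends is upstream sequence for both genes at the same time.

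The sequence between the 5′ ends is shown for 6 of the 10 divergent sites with the highest fold enrichment, since this stretch is shared by both genes. It is written in full on the plus strand of GRCm38, and capitals mark matches to the promoter elements searched (a CCAAT box at Qrsl1/Rtn4ip1, an NRF1 motif at Slc39a7/Rxrb and an E-box at Tada2a/Acaca). The CCAAT box and the E-box lay more than 100 bp from the summits of their sites. They are therefore not in the counts of elements near summits given below. In each name the gene on the minus strand comes first.
Qrsl1/Rtn4ip1, chr10:43901746-43901806: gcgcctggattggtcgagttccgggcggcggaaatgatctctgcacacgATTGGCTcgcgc
Ndufa1/Rnf113a1, chrX:37191164-37191244: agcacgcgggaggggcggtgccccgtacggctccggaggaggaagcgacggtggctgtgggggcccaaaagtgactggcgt
Mmachc/Ccdc163, chr4:116708407-116708508: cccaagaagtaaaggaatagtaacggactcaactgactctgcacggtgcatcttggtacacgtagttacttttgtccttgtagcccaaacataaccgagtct
Coa5/Unc50, chr1:37430104-37430138: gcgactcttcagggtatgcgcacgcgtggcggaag
Slc39a7/Rxrb, chr17:34031683-34031811: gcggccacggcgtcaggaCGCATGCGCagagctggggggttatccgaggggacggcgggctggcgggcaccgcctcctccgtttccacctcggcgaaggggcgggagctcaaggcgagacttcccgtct
Tada2a/Acaca, chr11:84129601-84129671: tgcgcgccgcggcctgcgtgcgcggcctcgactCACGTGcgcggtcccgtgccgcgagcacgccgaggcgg
None of these 6 stretches overlapped an annotated exon. They range from 35 bp between Coa5 and Unc50 to 129 bp between Slc39a7 and Rxrb.

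The 9 divergent sites ranked 2 to 10 by fold enrichment are described here. The highest of them, at chr10:43901102-43902164, covered the 5′ ends of Qrsl1 and Rtn4ip1, which encode a mitochondrial amidotransferase subunit and a mitochondrial oxidoreductase. Its pileup was 214 fragments and its fold enrichment 73.0, with the summit 155 bp inside Qrsl1.

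Of the next sites, 4 had fold enrichments of 49.7 to 54.4. Ndufa1, a subunit of complex I, shared the site at chrX:37190682-37191417 with Rnf113a1, and the fold enrichment was 54.4. The summit of this site lay between the 5′ ends, 28 bp from that of Ndufa1 and 54 bp from that of Rnf113a1. Mmachc, required for the processing of vitamin B12, and Ccdc163 shared a site at chr4:116708194-116708717 with a fold enrichment of 51.4 and a summit between the 5′ ends. Coa5, an assembly factor of cytochrome c oxidase, and Unc50 had a site at chr1:37429623-37430340 with a fold enrichment of 50.5 and its summit 118 bp inside Coa5. Ndufa5, another subunit of complex I, had a site at chr6:24527080-24527864 with a fold enrichment of 49.7. This was the only one of the 9 that covered neither 5′ end. Its summit lay 410 bp inside Ndufa5, in an untranslated exon, on the side away from Asb15.

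The last 4 of these 9 sites had fold enrichments of 39.7 to 44.8. Bag4, a co-chaperone of Hsp70, and Lsm1, a factor of cytoplasmic mRNA decay, start on adjacent bases and shared a site of 44.8 at chr8:25784992-25785774. Prkar1b, a regulatory subunit of protein kinase A, and Dnaaf5, which acts in the assembly of axonemal dynein, shared a site of 43.3 at chr5:139149811-139150908, whose summit lay in a coding exon of Dnaaf5. Slc39a7, a zinc transporter, and Rxrb, which encodes the TR partner RXRβ, shared the site at chr17:34031300-34032848. With 1549 bp it was the longest divergent site, and with a local background of 4.38 fragments its pileup of 216 corresponded to a fold enrichment of 40.4. Tada2a, an adaptor of histone acetyltransferases, and Acaca, the acetyl-CoA carboxylase of fatty acid synthesis, shared a site of 39.7 at chr11:84129012-84129803. The map of the strongest sites shows that they did not have a common place relative to the pair: 3 summits lay between the 5′ ends, 4 in the minus-strand gene and 2 in the plus-strand gene.

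**Figure D1:**
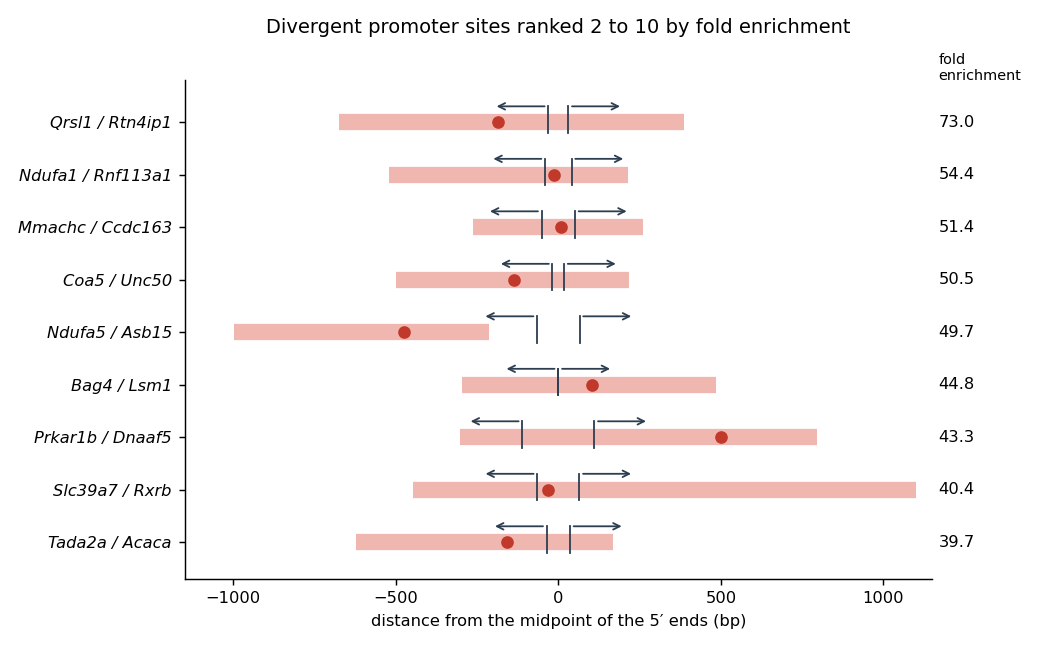
Map of the divergent promoter sites ranked 2 to 10 by fold enrichment. The x axis is the distance in bp from the midpoint of the 5′ ends, pale bars are the peaks, red points the summits, vertical lines the 5′ ends and arrows the direction of transcription, with the minus-strand gene on the left and the fold enrichment (39.7 to 73.0) on the right. Peaks cover both 5′ ends in every row except Ndufa5/Asb15, where the peak lies inside Ndufa5.

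Over all 285 sites, 104 summits lay inside the minus-strand gene, 104 inside the plus-strand gene and 77 between the 5′ ends, or 27.0% (22.2 to 32.5). "Between" is thus true of the summit in a minority of the sites. The peak itself covered both 5′ ends at 157 sites, or 55.1%, and 1 of them at 75 sites. A further 50 sites lay entirely inside a gene of the pair and 3 entirely between the ends. Outside the stretch between the ends, 115 summits fell in untranslated exons, 32 in coding exons and 61 in introns or before the first exon of a coding transcript.

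The share of summits between the ends was larger for pairs farther apart. It was 8.49% of 106 sites for pairs up to 100 bp apart, 31.1% of 119 sites at 101 to 300 bp and 51.7% of 60 sites at 301 to 1000 bp. Over the same bins the share of peaks covering both ends was 76.4, 54.6 and 18.3%, while the median fold enrichment was 7.59, 7.76 and 7.83. Per length of DNA, the highest value was that between the ends, with 52.5 summits per 100 kb of that sequence, from 77 summits. The density was 46.4 per 100 kb in the first 100 bp inside the genes, from 70 summits, and 11.9 in the last 100 bp of the window. These densities were not tested against each other. At the edge of the selection, 18 sites lay in the last 100 bp of the window and 8 in the 100 bp beyond it. The last sites inside were those at Ttc9c/Hnrnpul2, 491 bp out with a fold enrichment of 9.61, and at Tmem135/Fzd4, 483 bp out with 5.15. The first outside were those at Cep44/Fbxo8, 510 bp out with 20.1, and at Dcaf6/Mpc2, 518 bp out with 7.22.

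**Figure D2:**
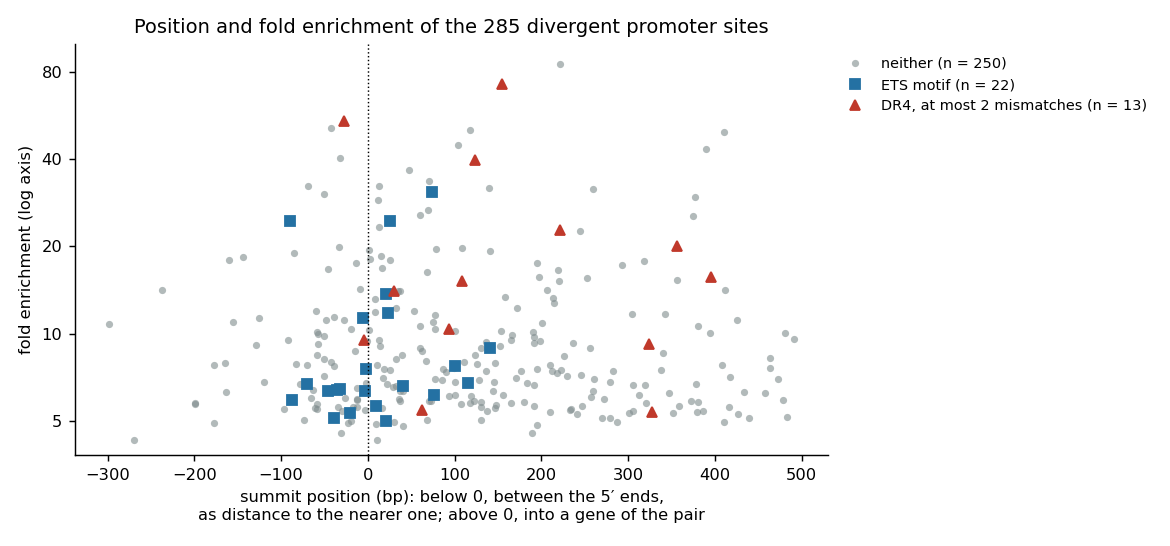
Summit position and fold enrichment of the 285 divergent promoter sites. On the x axis, values below 0 are the distance in bp to the nearer 5′ end for the 77 summits between the ends and values above 0 the distance into a gene, and the y axis is fold enrichment on a log axis. Squares mark the 22 sites with an ETS motif and triangles the 13 with DR4 within 100 bp of the summit, and sites above a fold enrichment of 40 occur on both sides of the 5′ end.

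It was next examined how often divergent pairs carried a site at all. The annotation held 754 pairs formed by 1487 genes, with a median distance of 129.5 bp, and 275 pairs (36.5%) had at least 1 site. The share was 33.7% (28.6 to 39.1) for pairs up to 100 bp apart, 37.3% (32.0 to 42.8) at 101 to 300 bp and 41.2% (33.3 to 49.6) at 301 to 1000 bp, with intervals that overlap. A pair has more sequence in its window the farther its ends are apart. To compare genes over windows of equal length, summits within 500 bp on either side of each 5′ end were counted, separately for the strands, so that a site shared by a pair entered each test once.

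Among the plus-strand genes of pairs, 256 of 746 had a site at the 5′ end, or 34.3% (31.0 to 37.8), against 1885 of 10202 plus-strand genes in no pair, or 18.5% (17.7 to 19.2). This corresponded to an odds ratio of 2.31 (two-sided Fisher's exact test, p = 6.79e-23). The minus-strand genes gave 254 of 741, or 34.3%, against 17.6% of 10249, with an odds ratio of 2.44 (exact test, adjusted p = 4.03e-25 over both tests). Since the genes of a pair share sites, the tests of the strands are not independent of each other. Of all protein-coding genes, 19.1% had such a site.

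Pairs also differed from other genes in base composition. The start was CpG-rich, with a GC content of at least 50% and an observed to expected CpG ratio of at least 0.6 over 250 bp on either side, in 1270 of the 1487 paired genes (85.4%) and in 9163 of the 20451 others (44.8%). Among genes with CpG-rich starts the shares with a site were 37.7% (34.0 to 41.5) of paired and 34.8% (33.5 to 36.2) of unpaired plus-strand genes, an odds ratio of 1.13 that did not pass the threshold of 0.05 (Fisher's exact test, p = 0.170). On the minus strand they were 37.1% (33.4 to 41.0) and 34.0% (32.7 to 35.4), an odds ratio of 1.14 (exact test, adjusted p = 0.170). Leaving out genes with predicted symbols gave odds ratios of 2.13 and 2.33 on the plus and minus strands.

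**Figure D3:**
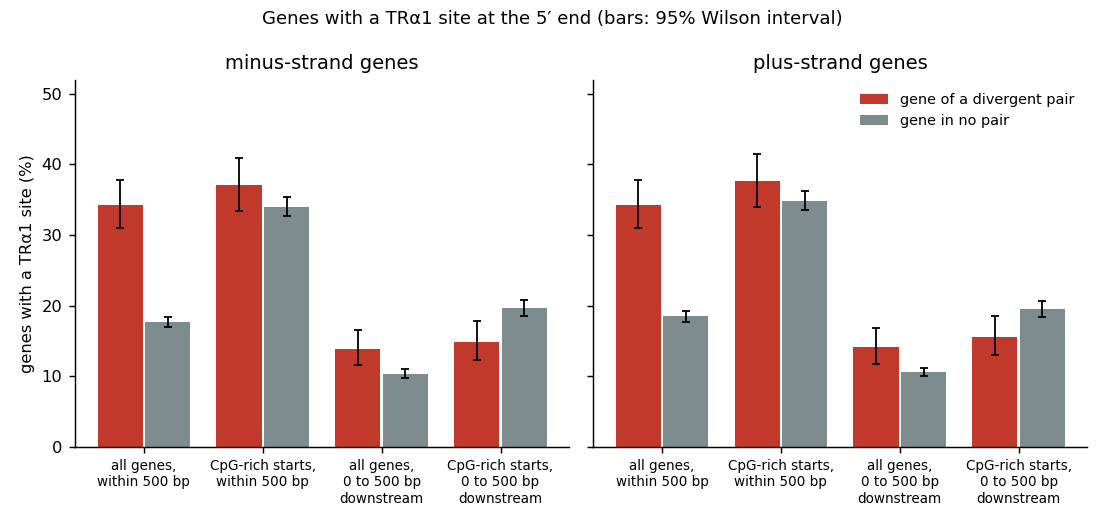
Share of genes with a TRα1 site at the 5′ end, for minus-strand genes (left) and plus-strand genes (right). The y axis is the percentage of genes with a summit in the window named under each pair of bars, red bars are genes of divergent pairs, grey bars genes in no pair, and error bars are 95% Wilson intervals. The gap of 34.3 against 18.5% for all plus-strand genes narrows to 37.7 against 34.8% among CpG-rich starts.

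The window on the far side of the 5′ end holds the partner gene in a pair. Counting only summits 0 to 500 bp downstream, the shares were 14.1% of paired against 10.6% of unpaired plus-strand genes (odds ratio 1.39, Fisher's exact test, p = 0.00399), and 13.9% against 10.4% on the minus strand (odds ratio 1.40, adjusted p = 0.00399). With CpG-rich starts only, the direction turned, to 15.5% against 19.5% on the plus strand (odds ratio 0.760, Fisher's exact test, p = 0.0177) and 14.8% against 19.6% on the minus strand (odds ratio 0.713, adjusted p = 0.00705). Genes of pairs with CpG-rich starts thus less often had a summit on their own side of the 5′ end than other genes with CpG-rich starts. The other genes include those with overlapping 5′ ends, where a summit between the ends lies downstream of both genes. This comparison was not run with overlapping ends counted as pairs. Only the summit was counted, so that a peak covering both 5′ ends of a pair could not count for both genes. Of the 285 divergent peaks, 157 covered both ends. Whether peaks, rather than summits, reached the genes of pairs less often was not tested.

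The profile along CpG-rich starts gives the shares by distance. In the 100 bp windows from 200 to 1 bp upstream, 6.85% (5.59 to 8.37) and 7.01% (5.73 to 8.55) of paired genes had a summit, against 4.67% (4.26 to 5.12) and 5.35% (4.91 to 5.83) of unpaired genes. In the first 100 bp downstream the values were 5.12% (4.04 to 6.47) and 6.05% (5.58 to 6.55), with overlapping intervals. At 300 to 399 bp downstream they were 1.97% (1.34 to 2.89) and 2.79% (2.48 to 3.15), and at 400 to 499 bp they were 1.34% (0.837 to 2.13) and 2.39% (2.097 to 2.72). Unpaired genes with CpG-rich starts had their highest share just inside the gene and paired genes had theirs upstream, where a summit inside the partner gene is counted again. Counted once, from the nearest 5′ end, 207 of the 285 divergent summits lay downstream, or 72.6% (67.2 to 77.5), against 55.7% (54.0 to 57.3) of single promoter summits, and the upstream stretch of a pair is cut short by the partner. Neither these shares nor the single windows were tested.

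**Figure D4:**
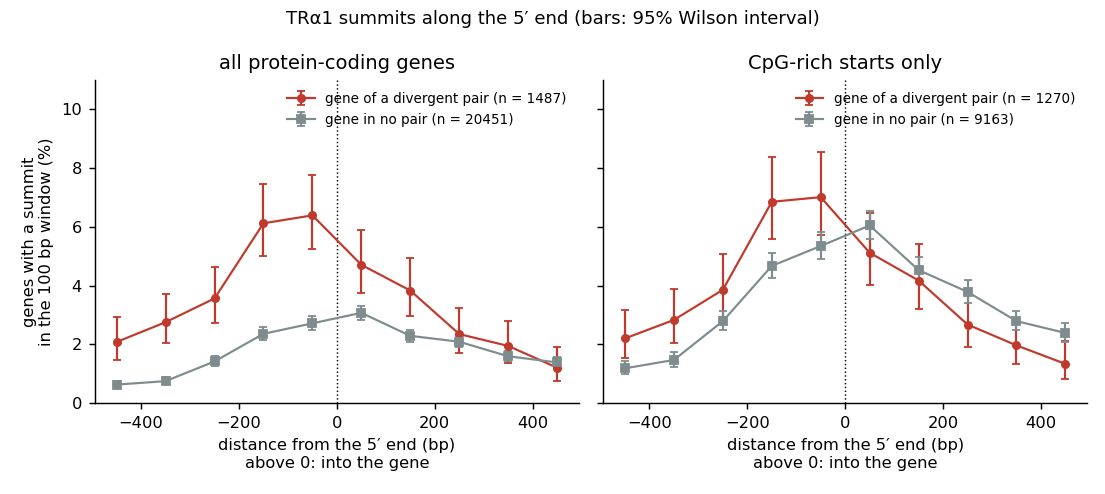
TRα1 summits along the 5′ end of genes of divergent pairs (red) and genes in no pair (grey), for all protein-coding genes (left) and for CpG-rich starts (right). The x axis is the distance from the 5′ end in bp, positive into the gene, and the y axis the percentage of genes with a summit in each 100 bp window, with 95% Wilson intervals. At CpG-rich starts the paired genes peak at 7.01% in the last 100 bp upstream and the others at 6.05% in the first 100 bp downstream, and a site can count for both genes of its pair.

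The divergent sites were then compared with the 3592 single promoter sites in 7 measures, each as the share of sites above the median of single promoter and divergent sites together, or with DR4. The median fold enrichment was 7.76 at divergent sites, which ranged from 4.29 to 85.6, and 7.87 at single promoter sites. Of the divergent sites 47.7% (42.0 to 53.5) lay above the common median, against 50.1% (48.5 to 51.8) of single promoter sites (Fisher's exact test, two-sided, adjusted p = 0.645 over the 7 measures). Fold enrichments of 20 or more were reached by 29 divergent sites (10.2%) and 388 single promoter sites (10.8%). Peaks of at least 1 kb made up 8.07% and 9.16%.

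The median peak length was 535 against 529 bp, and 50.9% against 49.9% of the sites lay above the common median (exact test, adjusted p = 0.759). No difference in length was thus detected between them, although 2 genes start at a divergent site. The pileup had medians of 26 and 25 fragments (exact test, adjusted p = 0.645) and the GC content medians of 64.3 and 64.9% (adjusted p = 0.645). The CpG ratio had medians of 0.829 and 0.811, with 55.1% (49.3 to 60.8) against 49.6% (47.9 to 51.2) above the common median (Fisher's exact test, adjusted p = 0.261). It passed the threshold when pairs were limited to 500 bp, at an odds ratio of 1.43 (exact test, adjusted p = 0.0224). The local background lay above the median at 57.2% of divergent and 49.3% of single promoter sites (exact test, p = 0.0115, adjusted p = 0.0808).

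A DR4 with at most 2 mismatches in its 12 half-site bases lay within 100 bp of the summit at 13 of 285 divergent sites, or 4.56% (2.68 to 7.65). The share was 5.43% (4.73 to 6.22) at single promoter sites, an odds ratio of 0.833 (Fisher's exact test, two-sided, adjusted p = 0.759), and 13.1% over all sites. The interval of the divergent sites holds the value of the single promoter sites and lies below the value of all sites. Around the 5′ ends of all protein-coding genes, windows of the same size held DR4 in 1.84%. No divergent site had DR4 without a mismatch, and 285 sites without a match allow a share of up to 1.33% (Wilson). Within the whole peak, 8.77% of divergent and 9.08% of single promoter sites held DR4.

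The 13 divergent sites with DR4 had fold enrichments of 5.36 to 73.0 with a median of 15.2, against a median of 7.59 at the other divergent sites. They included 3 of the 10 strongest, those at Qrsl1/Rtn4ip1, Ndufa1/Rnf113a1 and Tada2a/Acaca. Their matches are shown with the single divergent site that had only 1 mismatch, at Dedd2/Zfp526. Each is read 5′ to 3′ on the strand given, and capitals mark the half-sites.
Dedd2/Zfp526, chr7:25220665-25220694, plus strand, 1 mismatch: cccacttAGGTGActcaAGGTCAgggccag
Qrsl1/Rtn4ip1, chr10:43901528-43901557, minus strand, 2 mismatches: aagttcaAGGTCGccccGGGTCAcgccgca
Ndufa1/Rnf113a1, chrX:37191131-37191160, minus strand, 2 mismatches: ggaagagAGGTAAagccGGGTCAcctctga
Tada2a/Acaca, chr11:84129485-84129514, minus strand, 2 mismatches: gggagcgAGGGCAcgcgGGGTCAcgaggtg
The match at Dedd2, an apoptosis-related death effector domain gene, lay between the 5′ ends, 61 bp from the summit of a site with a fold enrichment of 9.48. In the other 3 the match lay inside the minus-strand gene, 23 to 47 bp from the summit.

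The 13 sites held 14 matches, because Ciao1/Tmem127 had 2 that overlapped. Of these, 11 lay within 50 bp of the summit and 1, that of Dedd2/Zfp526, between the 5′ ends. Other carriers were Ska3/Mrpl57 with a fold enrichment of 10.3 and Trak2/Stradb with 9.24. Itfg1/Phkb, where Phkb encodes a subunit of phosphorylase kinase, had the lowest value, 5.36.

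Exact matches to 11 elements of promoter-binding factors were counted on both strands within 100 bp of the summit. The ETS element CCGGAAGT was present at 22 divergent sites, or 7.72% (5.15 to 11.4), and at 132 single promoter sites, or 3.67% (3.11 to 4.34), an odds ratio of 2.19 (two-sided Fisher's exact test, p = 0.00227, adjusted p = 0.0250 over the 11 elements). Over all sites the share was 0.934%, and around the 5′ ends of all protein-coding genes it was 4.35%. Around the midpoint of divergent pairs without a site it was 8.98%. Divergent summits lay a median of 118 bp from the nearest 5′ end, against 163 bp for single promoter summits. The sites compared were not matched for this distance. The difference lost the threshold among sites with a score of at least 200, with 7 of 111 against 51 of 1382 sites and an odds ratio of 1.76 (exact test, adjusted p = 0.738). It also did so among sites of like GC content, at 10.7% against 4.91% (odds ratio 2.33, exact test, adjusted p = 0.0718), and with overlapping 5′ ends counted (odds ratio 1.70, adjusted p = 0.0903).

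None of the other 10 elements differed past the threshold. The NRF1 motif GCGCATGCG was found at 2.46% of divergent and 1.42% of single promoter sites (Fisher's exact test, adjusted p = 0.993), and the GC box GGGGCGGGG of SP and KLF factors at 13.3% and 16.04% (exact test, adjusted p = 0.993). The single half-site AGGTCA was found at 32 divergent sites (11.2%) and 431 single promoter sites, against 17.8% of all sites. The E-box CACGTG (7.02% and 6.85%), the CCAAT box AGCCAAT (4.21% and 4.62%) and the YY1 motif AAGATGGCG (2.11% and 1.81%) had overlapping intervals. The AP-1 motif TGANTCA was at 2.11% of divergent sites, 2.76% of single promoter sites and 11.5% of all sites. The CRE TGACGTCA and the palindrome CTCGCGAG were each at 4 divergent sites (1.40%), and ACTACAATT of ZNF143 at 0 of 285, which allows up to 1.33% (Wilson).

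**Figure D5:**
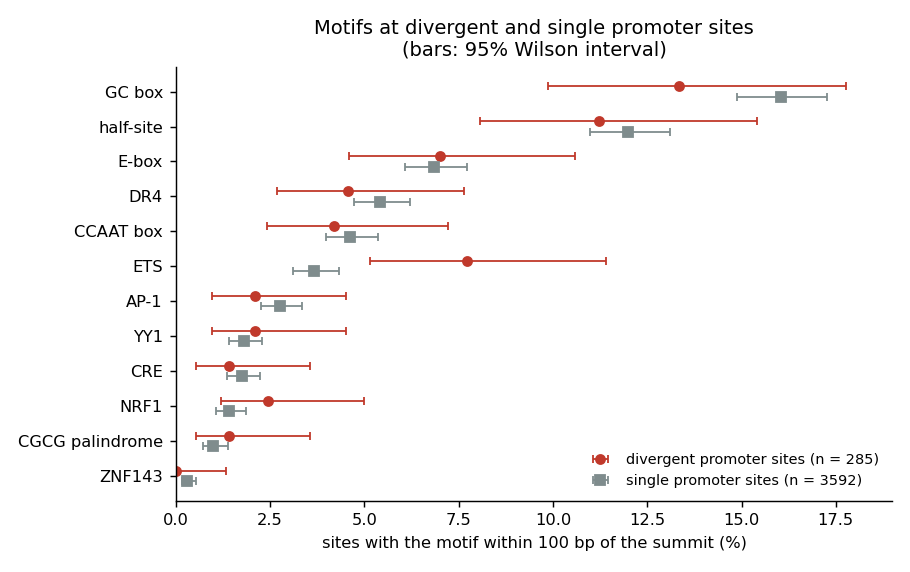
Share of sites with each motif within 100 bp of the summit, for the 285 divergent (red) and the 3592 single promoter sites (grey). The x axis is the percentage of sites and bars are 95% Wilson intervals. The ETS element is the 1 motif whose intervals stand apart, at 7.72 against 3.67%, and DR4 lies at 4.56 against 5.43%.

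The 22 sites with the ETS element had fold enrichments of 4.99 to 30.7 with a median of 6.64. The summit lay between the 5′ ends in 11 of them, beside 77 of all 285 divergent sites (27.0%). These shares were not tested against each other. Of the 23 matches, 10 lay between the 5′ ends, 5 over an end and 8 inside a gene. Matches between the ends are shown for 4 pairs that were chosen after their values were seen, as examples of the element in the stretch both genes share. Capitals mark the element, on the strand given.
Zfp654/Cggbp1, chr16:64851795-64851824, minus strand: ggtgggcggagCCGGAAGTagagcccaggc
Erp44/Invs, chr4:48279596-48279625, minus strand: atgggcaggacCCGGAAGTgagggcgtgag
Ankib1/Krit1, chr5:3803151-3803180, plus strand: ggggcgtaaccCCGGAAGTtattgcccggc
Emg1/Phb2, chr6:124712280-124712309, minus strand: gagaaagggcaCCGGAAGTgcgcctccctc
The fold enrichment was 24.5 at Zfp654/Cggbp1 and 11.7 at Erp44/Invs, where Erp44 encodes a protein of the endoplasmic reticulum and Invs a protein of the cilium. It was 6.38 at Ankib1/Krit1 and 5.33 at Emg1/Phb2, where Phb2 encodes prohibitin 2 of mitochondria. The Emg1/Phb2 promoter was the only one with 2 matches near the summit.

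Pairs with a site were compared with the 479 pairs without one, in 8 measures around the midpoint of the pair. The GC content over 250 bp on either side had a median of 64.3% in the 275 pairs with a site and 60.7% in the others, and 59.3% (53.4 to 64.9) against 43.2% (38.9 to 47.7) lay above the median of all pairs. This was an odds ratio of 1.91 (two-sided Fisher's exact test, adjusted p = 1.81e-04 over the 8 measures). The CpG ratio had medians of 0.858 and 0.814 (odds ratio 1.495, exact test, adjusted p = 0.0338). A GC box was present in 22.2% against 14.8% of the windows of 100 bp on either side (odds ratio 1.64, exact test, adjusted p = 0.0338).

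The other measures did not pass the threshold. An ETS element lay at 12.7% (9.30 to 17.2) of pairs with a site and at 8.98% (6.73 to 11.9) of those without (odds ratio 1.48, exact test, adjusted p = 0.144). NRF1 motifs were at 4.73% and 3.97% (exact test, adjusted p = 0.809), YY1 motifs at 1.82% and 4.18% (adjusted p = 0.144), and DR4 at 1.09% and 1.04% (adjusted p = 1). The median distance between the 5′ ends was 137 and 120 bp (odds ratio 1.30, exact test, adjusted p = 0.144).

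The genes of divergent pairs were grouped by function from their symbols, and the count of those with a site in their pair was read beside the 550 of 1487 paired genes, or 37.0%, that had one. Genes of the respiratory chain and ATP synthase had a site in 11 of 24 cases. The strongest were the complex I subunits Ndufa1 and Ndufa5 described above, followed by Cox11, an assembly factor of cytochrome c oxidase that shares its site with Stxbp4 (fold enrichment 18.5), and the complex I subunit Ndufv3 with Wdr4 (11.97). The succinate dehydrogenase genes Sdha and Sdhd, Uqcrh of complex III, Cox4i1 of complex IV and Atp5h of ATP synthase were also among the 11. Genes of the mitochondrial ribosome had a site in 6 of 16 cases, among them Mrpl40 with the histone chaperone gene Hira (12.8 and 8.55 at its 2 sites), Mrpl57 with Ska3 (10.3) and Mrps27 with Ptcd2 (7.15). The grouping read only the pattern of the symbol, so that members with other symbols were not counted in this and the following groups. Examples with a site, chosen after their values were seen, are Mrps18b with Ppp1r10 (33.6) and Mrps18c with Helq (10.2) for the mitochondrial ribosome, Fau with Mrpl49 (6.13) for the cytosolic ribosome, Hsp90b1 with Ttc41 (5.12) for chaperones and Rnf113a1 with Ndufa1 (54.4) for ubiquitin ligases.

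Of 27 paired genes with histone symbols, 3 had a site, and none of the 8 paired genes counted by symbol for the cytosolic ribosome had one. Fau, named above, was not counted in that group. The histone genes with a site were Hist2h2ab, with Bola1 (15.7 and 7.22), and the pair Hist1h2an and Hist1h2bp (7.58). Many histone genes are alike in their coding sequence, and how reads that map to several copies were treated was not stated. No effect of this on the count was measured. These counts were not tested.

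Genes of DNA repair and replication had a site in 11 of 27 cases by symbol, a pattern that leaves out several repair genes. They included Mcm4 of the replicative helicase and Prkdc, the catalytic subunit of DNA-dependent protein kinase, which share a site of 17.5 with its summit between the 5′ ends. Dclre1b, a nuclease acting at telomeres, had a site of 14.005, and Ercc8 with Ndufaf2 one of 7.94. Zinc finger genes had a site in 12 of 25 cases, led by Zfp597 with Gm20695 (36.8), Zfp664 with Ccdc92 (32.4), Zfp142 with Bcs1l (30.7) and Zfp654 with Cggbp1 (24.5). The site at Zfp142 also bore an ETS element, and Bcs1l encodes an assembly factor of complex III.

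Ubiquitin ligases and hydrolases had a site in 7 of 18 cases, with Rnf115 (29.0), Usp35 (18.4), Usp29 (12.3) and Rnf5 (7.34) as the strongest of those counted by symbol. Usp29 lies opposite the imprinted gene Peg3. Genes with the chaperone symbols searched had a site in 4 of 12 cases, Hspb11 with Lrrc42 (19.6), Dnajc2 with the proteasome gene Psmc2 (6.52), Dnajb1 with Tecr (6.41) and Dnajb4 with Fubp1 (5.53). For the proteasome the count was 2 of 8, and Psma7 with Ss18l1 had a fold enrichment of 9.89. Solute carriers had a site in 5 of 16 cases, namely Slc39a7 (40.4), Slc38a6 (7.96), Slc30a7 (7.61), Slc9a5 (6.78) and Slc52a2 (5.75). In the group of vesicle traffic and synapse it was 4 of 11, with Ap3m1 and the adenosine kinase gene Adk (29.7), Vps26b and Ncapd3 (15.6), Vps53 and Fam57a (5.10), and Vps29 and Rad9b (4.95). Olfactory receptors, with 1093 genes in the annotation, formed no divergent pair.

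Of 11 pairs known from textbooks for a shared promoter, 4 met the distance and strand rule in this annotation and 3 of these had a site. Of all 754 divergent pairs, 275 (36.5%) had one, and the 4 pairs were not tested against them. Gart and Son, of purine synthesis and RNA splicing, have 5′ ends 554 bp apart. Their site had a pileup of 38 fragments, a fold enrichment of 11.4 and its summit 6 bp from the start of Gart on the side of the pair, with an ETS element just inside Gart. Mcm4 and Prkdc, 466 bp apart, had the site of 17.5 with its summit 14 bp from the start of Mcm4. Atm and Npat, the kinase of the DNA damage response and a regulator of histone transcription, lie 307 bp apart and had a weaker site with a pileup of 19 fragments and a fold enrichment of 6.79. Wrap53 and Trp53, 104 bp apart, had none. Summits lay between the 5′ ends in all 3 pairs with a site. Among all divergent sites of pairs 301 to 1000 bp apart, this was true of 51.7% of 60 sites.

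No pair had more than 2 sites, and 10 pairs had 2. Their summits lay 457 to 1231 bp apart with a median of 672 bp. At Ift80/Smc4, Bola1/Hist2h2ab, Fhl4/Tmem263, Npc2/Isca2, Mrpl40/Hira and Smim7/Tmem38a each gene held 1 summit. At Npc2, which encodes a lysosomal cholesterol carrier, and Isca2, a mitochondrial iron-sulfur protein gene, these had fold enrichments of 9.30 and 8.93. At Aamdc/Rsf1, Zbtb25/Zbtb1 and Cbx5/Hnrnpa1 one summit lay between the ends and the other inside the plus-strand gene, with 17.96 and 6.26, 9.11 and 8.93, and 4.29 and 10.7. At Taf5l/Urb2 both lay inside Taf5l. The site between Cbx5, which encodes the heterochromatin protein HP1α, and Hnrnpa1 had the lowest fold enrichment of all 285 divergent sites.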

How the data were processed

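TRα1 was measured by ChIP-seq, after crosslinking with disuccinimidyl glutarate and formaldehyde, in 2 ChIP libraries and 1 input library. The authors aligned the reads to GRCm38 (mm10) with Bowtie (Bowtie2 2.3.2.2 in the submitters' processing notes), called peaks with MACS2 2.1.1.20160309.0 and removed peaks with a score below 60. Pooling of the libraries before peak calling and the treatment of duplicates were not given in the sources used here. The deposited pileup is ChIP fragment coverage (signal) at the summit, and the deposited fold enrichment is a ratio to local background. The −log10 q values and the score, as deposited, were not tested, and the score served as a filter. Library depths were not analysed here, and 0 columns were left unassigned.

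Local background was computed as (pileup + 1) divided by fold enrichment, minus 1. Sites were assigned by summit to GENCODE vM21 gene ends, and chromosome lengths were checked against the list. Base composition was read over 250 bp and motifs over 100 bp on either side, DR4 allowing at most 2 mismatches in 12 bases on both strands. Shares were compared by two-sided Fisher's exact tests with Benjamini-Hochberg adjustment (threshold 0.05). Named genes were those of the 10 strongest divergent sites, of sites with DR4 at 1 mismatch or less, of textbook pairs and up to 4 per gene family, and other names were chosen after their values were seen. Some genes that this rule names are not reported here. The members, lists and tests were chosen with earlier results of these data known. The comparisons of local background, pileup and GC content, of pairs with and without a site, the profile, and the alternatives without predicted genes, without noncoding divergent genes or joining CpG-rich starts with downstream summits were added after seeing the data. Python 3.11.15, pandas 2.3.3, scipy 1.17.1, pysam 0.24.0 and matplotlib 3.10.9 were used, and the procedures were tested on simulated data.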

Additional observations from a re-analysis of the deposited data

How the results depend on the processing

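The alternatives gave the following values beside the main ones. The number of divergent sites, 285, became 111 with a score of at least 200, 475 with overlapping 5′ ends counted and 603 with genes of all biotypes. The odds ratio for a site at the 5′ end of paired genes fell from 2.31 to 1.13 on the plus strand and from 2.44 to 1.14 on the minus strand with CpG-rich starts only, and to 0.760 and 0.713 with CpG-rich starts and downstream summits. It stayed above 1 and past the threshold under the other alternatives run. The odds ratio for fold enrichment, 0.908, was 1.10 with genes of all biotypes, that for peak length, 1.04, was 0.988 with the peak midpoint, and that for DR4, 0.833, was 1.22 with the midpoint and 1.02 with overlapping ends. None of these 3 passed the threshold under any alternative. The odds ratio for the CpG ratio, 1.25, was 1.43 with pairs up to 500 bp and 1.59 with all biotypes, both past the threshold. The count of elements that differed was 1, and 0 with a score of at least 200 (0 with an unadjusted Fisher p under 0.05), with overlapping ends (2) and with sites of like GC content (1). The share of summits between the ends, 27.0%, was 34.2% within 250 bp and 32.6% with overlapping ends. The cause of these changes was not tested, except that windows and sets differ by construction. No paired analysis was possible because the list holds no values for single libraries. The variation between animals, and the sequencing depth, were therefore not assessed.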

Other observations

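Among the single promoter sites, 288 lay at a gene with a noncoding or other gene starting on the opposite strand within 1 kb upstream, and 3304 did not. The first had a median fold enrichment of 8.46 and a median length of 558.5 bp, and the second 7.81 and 527 bp. The ETS element was present near 5.56% and 3.51% of the summits, beside 7.72% at divergent sites, and DR4 at 3.82% and 5.57%. These values were not tested against each other.

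Predicted genes took part in 78 of the 754 pairs. In 4 cases a summit lay in the windows of 2 pairs at once, at Dclre1b/Gm43064, Chtf8/Utp4, Rnf121/Xndc1 and Hook3/Rnf170, and was assigned to 1 of them. The divergent sites were found on every chromosome except Y, with 24 on chromosome 11, the most, and 3 on chromosome X.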
